A study of Mus musculus with 6 samples.

Results

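Guanylate-binding proteins (GBPs) and immunity-related GTPases (IRGs) were described in hypothalamic neural stem/progenitor cells (NSC/NPCs) of male mouse fetuses after prenatal high estradiol exposure (HE) or in controls (NC). The 10 genes described here, Gbp2, Gbp3, Gbp5, Gbp6, Gbp7, Gbp9, Igtp, Irgm1, Irgm2 and Iigp1, were selected on their measured values in these same samples, and all 10 were found among the 22048 genes of the deposited table. Their levels and the difference between HE and NC are therefore given as a description, without a test. GBPs are large GTPases that interferons induce strongly, and they assemble on the membranes of pathogen-containing vacuoles and on bacteria in the cytosol. IRGs are smaller interferon-inducible GTPases that act on the same vacuoles, where one class, marked here by Iigp1, coats and disrupts the membrane and a regulatory class, Irgm1, Irgm2 and Igtp, keeps the first class inactive on the membranes of the cell itself. In textbook signalling, interferon gamma binds its receptor, JAK kinases phosphorylate STAT transcription factors, and these together with the IRF1 they induce switch these genes on.

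RNA was sequenced from neurospheres harvested at the first passage, with 3 HE samples (HE1, HE2 and HE3) and 3 NC samples (NC1, NC2 and NC3), each pooled from 2 mice. C57BL/6 dams, 8 weeks old, were given estradiol valerate by gavage at 100 μg/kg/d from E5.5 to E11.5 in the HE group and the corn oil solvent alone in the NC group, although the sample labels call the NC samples untreated. Cells of both groups came from E14.5 hypothalami and were expanded with EGF and bFGF, so that they are cultured cells and not fetal tissue. The labels do not state whether the mice of different samples came from different litters, so that p-values measure only the spread between these samples. Levels are given as reads per kilobase of gene length, scaled to the total reads of the sample (RPKM), which can be compared between genes.

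The totals of reads assigned to genes ran from 16078675 to 19137059, and 1 read on a gene of 1 kilobase was worth 0.0523 to 0.0622 RPKM. All 12 progenitor markers were detected in every sample and none was called, with Sox2 between 97.3 and 209 RPKM and Nes between 154 and 247 RPKM, but Pax6 between 2.30 and 4.55 RPKM and Hes5 between 2.15 and 6.18 RPKM. Of the hypothalamus markers, Nkx2-1 was at 1.03 to 3.34 RPKM and Six3 at 0.902 to 2.85 RPKM, and Rax, Otp and Sim1 stayed at or below 8 reads in each sample. Of the astrocyte markers, Gfap was at 195 to 754 RPKM and Aldh1l1 at 482 to 698 RPKM, but Slc1a2 at 6.985 to 14.7 RPKM. Of the oligodendrocyte lineage markers, Olig1 was at 133.5 to 312.5 RPKM and Olig2 at 97.7 to 182 RPKM, but Mog at 0.0730 to 0.341 RPKM. No gene of the 13952 tested was called between HE and NC with limma on log2(RPKM + 0.1), where a call needed an adjusted p under 0.05 and a log2 fold change of 1 or more either way (0% called, lowest adjusted p = 0.148), and 2858 had an unadjusted p under 0.05. The study used DESeq2 at the same cutoffs and reported differentially expressed mRNAs in both directions. The 0% called is therefore the outcome of limma here. The share of genes with an unadjusted p under 0.05 was 11.8% for genes lower in HE and 8.68% for genes higher in HE. NC1 and NC2 stood apart from NC3 in the genes described here, and each sample is therefore given alone. Without NC3, 103 genes were called.

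NC1 and NC2 held the GBP and IRG mRNAs at many times the level of NC3 and of the HE samples. In 10 of 10 members NC1 and NC2 each lay above NC3 and above every HE sample. The RPKM of NC1 was 2.33 to 51.3 times the mean of the HE samples, with a median of 8.87 over the members, and that of NC2 was 4.53 to 98.9 times that mean, with a median of 14.6. For NC3 the same ratio ran from 0.488 to 1.81, with a median of 1.15. A level at least 2 times that of NC3 was reached by 10 of 10 members in NC1, against 2.67% of all genes tested, and by 10 of 10 in NC2, against 3.15% of all genes tested. Since the members were selected on these samples, nothing is read from these shares about the members themselves.

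The summed RPKM of the 10 members was 192.3 in NC1 and 349.1 in NC2, but 29.5 in NC3 and 28.6, 17.8 and 23.2 in HE1, HE2 and HE3. The NC3 sum was thus closer to that of HE1 than to that of any other NC sample. NC2 was above NC1 in 10 of 10 members, by 1.41 to 2.47 times, and the 95% counting interval of this ratio lay above 1 in all 10. These intervals cover counting error only, since reads amplified by PCR are not independent molecules. In bulk RNA, a smaller number of expressing cells and less mRNA per cell cannot be told apart.

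**Figure D1:**
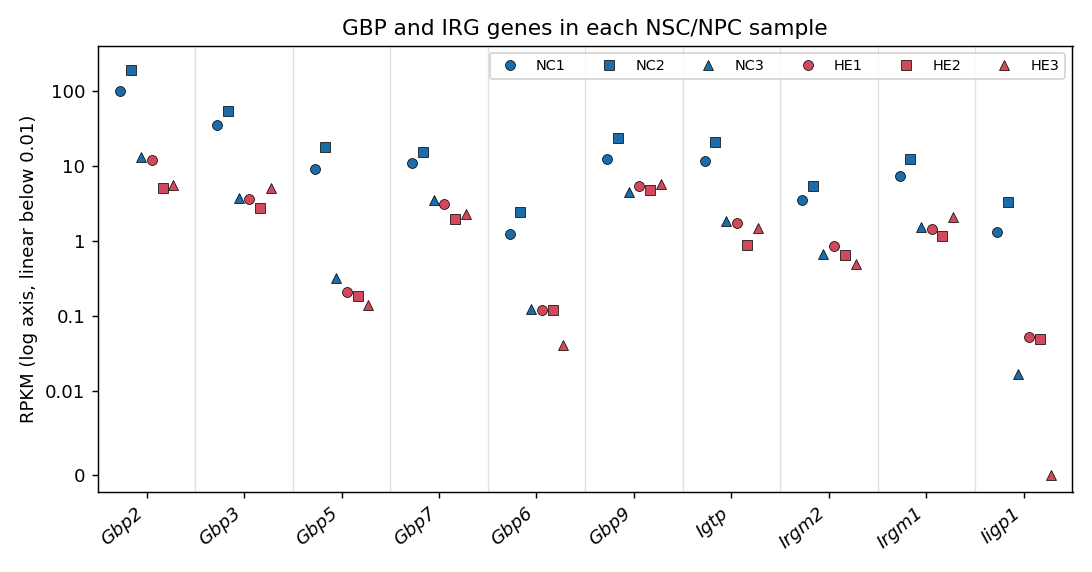
RPKM (log axis, linear below 0.01) of the 10 GBP and IRG genes in each of the 6 samples, 1 point per sample, blue for NC and red for HE. NC1 and NC2 lie above the other 4 samples in every gene, while NC3 lies among or near the HE samples; Iigp1 is at 0 in HE3.

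The groups did not overlap, with every HE sample below every NC sample, in 5 of 10 members (Gbp2, Gbp5, Gbp6, Gbp7 and Igtp), against 17.9% of all genes tested in that direction and 14.8% in the opposite direction. They overlapped in the other 5 (Gbp3, Gbp9, Irgm1, Irgm2 and Iigp1), in each case through NC3. NC1 and NC2 lay above every HE sample in all 10 members, so this count depends on NC3 alone. Since the members were selected on these samples, nothing is read from it about a difference between the groups. The filter on low reads was passed by 9 members, and Iigp1, which was left out by it, is given by its reads. The median difference HE minus NC over the 10 members was -2.31 on the log2(RPKM + 0.1) scale, against -0.06 over all genes tested. Leaving out NC3 moved this median to -3.38 and leaving out NC2 moved it to -1.57.

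Among the GBPs of chromosome 3, Gbp2 was the most abundant member. The Gbp2 locus lies at chr3:142620663-142638008 (GRCm38, the assembly that mm10 names), and its protein is anchored to membranes by a lipid added at its C-terminal CaaX motif. Gbp2 stood at 99.1 RPKM in NC1, 193 in NC2 and 13.2 in NC3, and at 12.1 in HE1, 5.17 in HE2 and 5.66 in HE3 (HE mean 7.64 ± 3.85, SD, n = 3). NC3 and HE1 were next to each other, with 95% counting intervals of 12.1 to 14.2 and 11.1 to 13.1 RPKM that overlapped, and both were above HE2 and HE3. Gbp2 made up 51.5% of the summed RPKM of the members in NC1 and 55.3% in NC2, and 44.6% in NC3, against 42.2%, 29.0% and 24.4% in HE1, HE2 and HE3.

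Gbp5, at chr3:142496934-142522344, encodes another prenylated GBP, known for promoting assembly of the NLRP3 inflammasome. It had the widest range among the 9 members past the filter, with 9.24 RPKM in NC1 (1151 reads) and 17.8 in NC2 (2263 reads), but 0.326 in NC3 (41 reads) and 0.210, 0.190 and 0.141 in HE1, HE2 and HE3 (15 to 25 reads). NC1 was thus 51.3 times and NC2 98.9 times the HE mean of 0.180 ± 0.0359 (SD, n = 3). NC3 was above all HE samples, at 1.79 times their pooled rate (95% counting interval 1.18 to 2.70).

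Gbp7 and Gbp3 lie between Gbp5 and Gbp2 in the same cluster, at chr3:142530336-142550151 and chr3:142560016-142573213. Gbp7 stood at 10.9, 15.3 and 3.53 RPKM in NC1, NC2 and NC3 and at 3.09, 1.98 and 2.28 in HE1, HE2 and HE3. Its NC3 level was above each HE sample, and 1.44 times their pooled rate (95% counting interval 1.27 to 1.63). Gbp3 stood at 35.3, 54.3 and 3.78 RPKM in NC1, NC2 and NC3 and at 3.61, 2.78 and 5.20 in HE1, HE2 and HE3. Here HE3 was above NC3, and NC3 was at 0.998 times the pooled HE rate (0.856 to 1.16). Gbp3 was the second most abundant member in NC1 and NC2.

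Among the GBPs of chromosome 5, Gbp9 (chr5:105076464-105110357) had the smallest difference of all members. It stood at 12.4 RPKM in NC1, 24.1 in NC2 and 4.51 in NC3, and at 5.39 in HE1, 4.81 in HE2 and 5.75 in HE3 (HE mean 5.32 ± 0.470, SD, n = 3). NC3 was the lowest of the 6 samples, at 0.853 times the pooled HE rate (95% counting interval 0.765 to 0.949), and Gbp9 was the only member for which NC3 lay below every HE sample. Gbp6 (chr5:105270702-105295871) was low throughout, with 1.26 RPKM in NC1 (141 reads), 2.48 in NC2 (283 reads) and 0.124 in NC3 (14 reads), and with 0.122 in HE1 (13 reads), 0.123 in HE2 (14 reads) and 0.0418 in HE3 (4 reads). NC3, HE1 and HE2 did not differ beyond counting error for Gbp6, and the counting interval of NC3 over the pooled HE rate was 0.622 to 2.45. Gbp6, Gbp10 and Gbp4 are close paralogs, and how reads shared between them were counted is not given in the sources used here.

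The regulatory IRGs were also highest in NC2 and next highest in NC1, while the order of the other 4 samples differed between them. Igtp (also called Irgm3, chr11:58199556-58207592) stood at 11.8 RPKM in NC1, 20.7 in NC2 and 1.85 in NC3, and at 1.74 in HE1, 0.882 in HE2 and 1.51 in HE3. NC3 was above all HE samples, at 1.36 times their pooled rate with a 95% counting interval of 1.01 to 1.82. Irgm1 (chr11:48865245-48871420), which is also known for a role in autophagy, stood at 7.39, 12.5 and 1.55 RPKM in NC1, NC2 and NC3 and at 1.45, 1.18 and 2.09 in HE1, HE2 and HE3, so that HE3 was above NC3. Irgm2 (chr11:58214977-58222783) stood at 3.55, 5.40 and 0.672 RPKM in NC1, NC2 and NC3 and at 0.863, 0.654 and 0.506 in HE1, HE2 and HE3. For Irgm1 and Irgm2, NC3 was at 1.00 and 0.990 times the pooled HE rate, with counting intervals of 0.838 to 1.20 and 0.694 to 1.39.

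Promoter sequences are shown because the members moved together across the samples and because the 2 elements through which interferons act on such genes are short enough to be found in them. A window from 250 bases before to 50 bases after the start site was taken from RefSeq (GRCm38.p6) for 7 of the 10 members, namely Gbp2, Gbp3, Gbp5, Gbp7, Igtp, Irgm1 and Irgm2. The interferon-stimulated response element (ISRE), which IRF transcription factors bind, was searched as GAAANNGAA, and the gamma-activated site (GAS), which STAT dimers bind, as TTCNNNGAA, both on either strand. The ISRE core was found in 7 of these 7 members, in 7 of their 8 windows, as Gbp3 has 2, and in 8.56% of the 32851 windows of all genes. The GAS core was found in 4 members (Gbp5, Gbp7, Igtp and Irgm2) and in 8.30% of all windows, and 1.07% of all windows held both. Among other genes of both families, Tgtp1, Tgtp2 and Gm12185 also held both cores, and Gbp2b and 9930111J21Rik1 only the ISRE core. Ifi47, Irgq, Gm5431 and 9930111J21Rik2 held neither. The window of Gm12250, the gene beside Igtp, held 2 ISRE cores and 1 GAS core. A match describes letters in the window and is not evidence of binding.

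The stretches below run 5′ to 3′ on the strand of the gene and end before the start site of the window, with the letters of each ISRE or GAS core in capitals. For Gbp3 the start site of the window shown lies inside the locus given above, and the other Gbp3 window held no core. The first 3 are GBPs of chromosome 3, shown as the member with the highest level, the one with the widest range and one whose groups overlapped, and the ISRE core of each lies in the reverse orientation (chr3:142620565-142620653, chr3:142496730-142496818 and chr3:142559960-142560043, plus strand).
Gbp2: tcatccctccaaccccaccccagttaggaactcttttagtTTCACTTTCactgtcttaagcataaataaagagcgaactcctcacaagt
Gbp5: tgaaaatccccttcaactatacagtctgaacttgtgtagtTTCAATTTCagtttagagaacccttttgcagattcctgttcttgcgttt
Gbp3: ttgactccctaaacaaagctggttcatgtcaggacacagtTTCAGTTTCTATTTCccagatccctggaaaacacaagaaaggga

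The ISRE core began 58 bases before the start site in Gbp2 and 164 bases before it in Gbp5. In Gbp3 it began 44 bases before the start site of the window shown, where a second core overlapped the first. In Gbp7 it began 52 bases before the start site. Gbp5 and Gbp7 each held 2 GAS cores elsewhere in the window.

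The regulatory IRGs of chromosome 11 carried the ISRE core in the forward orientation, and they are shown because 2 of them share nearly the whole stretch (chr11:58199482-58199555 and chr11:58214873-58214961, plus strand, and chr11:48871421-48871490, minus strand).
Igtp: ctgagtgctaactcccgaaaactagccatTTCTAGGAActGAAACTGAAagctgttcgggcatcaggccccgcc
Irgm2: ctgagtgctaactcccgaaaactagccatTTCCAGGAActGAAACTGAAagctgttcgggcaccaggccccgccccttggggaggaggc
Irgm1: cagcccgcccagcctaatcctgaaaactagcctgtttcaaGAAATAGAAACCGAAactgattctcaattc

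Igtp and Irgm2 were identical at 72 of the 74 bases of the Igtp stretch, and in both the GAS core began 11 bases before the ISRE core. The same spacing was found in Tgtp1, Tgtp2 and Gm12185, which are not members. The ISRE core began 34 bases before the start site in Igtp and 64 bases before it in Irgm2. The level of Igtp was above that of Irgm2 in each of the 6 samples, by 11.8 against 3.55 RPKM in NC1 and by 1.51 against 0.506 RPKM in HE3. In HE2 their 95% counting intervals overlapped (0.611 to 1.23 RPKM for Igtp and 0.4785 to 0.872 RPKM for Irgm2), so the order is not settled there. In Irgm1 overlapping cores began 30 and 24 bases before the start site, with no GAS core in the window.

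The order of the members by RPKM, a scale that allows for gene length, changed between the samples with high and with low levels. Gbp2, Gbp3, Gbp9 and Igtp were the first 4 in NC1 and NC2, in this order. In NC3, HE1 and HE2 Gbp9 came second and Gbp3 the third. Some neighbours in these orders had overlapping 95% counting intervals, so their order is not settled. Examples are Gbp9 and Igtp in NC1, Gbp3 and Gbp7 in NC3 and HE1, and Gbp2 and Gbp9 in HE2. In HE3 Gbp9 came first at 5.75 RPKM, followed by Gbp2 at 5.66 and Gbp3 at 5.20, and these 3 neighbours did not differ beyond counting error (95% intervals 5.24 to 6.29, 4.95 to 6.44 and 4.60 to 5.86). Over the HE samples the levels of Irgm1 (1.57 ± 0.465) and Igtp (1.38 ± 0.444, both SD, n = 3) did not differ beyond their spread either. Gbp5 moved the most in this order, from rank 6 in NC1 and rank 5 in NC2 to rank 8 in NC3 and in each HE sample.

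NC3 lay above every HE sample in 5 members (Gbp2, Gbp5, Gbp6, Gbp7 and Igtp), within the HE range in 4 and below it in 1 (Gbp9), and the counts were the same with median-of-ratios scaling. These 5 are the members whose groups did not overlap, so the 2 counts are the same result. Over all genes tested, NC3 was above every HE sample in 28.1% and below every HE sample in 26.3%. The 95% counting interval of NC3 over the pooled HE rate was above 1 in 4 members, below 1 in 1 and held 1 in 5. Pooling the HE reads leaves out the spread between the HE samples, which for Gbp2 ran from 5.17 to 12.1 RPKM. These intervals therefore do not show that NC3 differed from the HE group. Of the neighbouring GBPs of chromosome 5 that are not members, Gbp4, Gbp10 and Gbp8 had NC3 as their lowest sample as well. Gbp4 stood at 1.73, 3.84 and 0.127 RPKM in NC1, NC2 and NC3 and at 0.358, 0.385 and 0.390 in HE1, HE2 and HE3, so that NC3 was at 0.336 times the pooled HE rate (95% counting interval 0.194 to 0.550). Gbp10 stood at 5.12, 9.38 and 0.409 RPKM in NC1, NC2 and NC3 and at 0.750, 0.596 and 0.851 in HE1, HE2 and HE3, with a ratio of 0.564 (0.368 to 0.839). Gbp8 had 29, 39 and 4 reads in NC1, NC2 and NC3 and 18, 14 and 4 in HE1, HE2 and HE3, with a ratio of 0.311 (0.0805 to 0.868). Gbp8 was thus below HE3 only through the library totals, as both samples had 4 reads. No difference between the GBPs of the 2 chromosomes was tested.

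**Figure D2:**
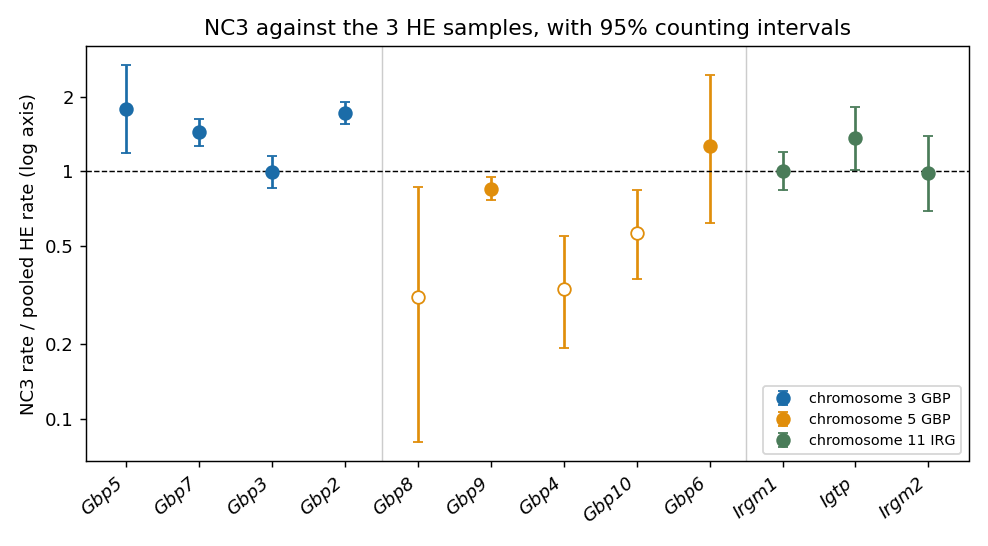
Rate of NC3 divided by the pooled rate of the 3 HE samples (log axis), with 95% counting intervals, for GBP genes of chromosomes 3 and 5 and IRG genes of chromosome 11; filled points are members and open points other GBP genes. The dashed line marks equal rates, and Gbp8, Gbp9, Gbp4 and Gbp10 lie below it with their intervals while Gbp2, Gbp5, Gbp7 and Igtp lie above it. The intervals leave out the spread between the HE samples.

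The effector IRGs were close to the limit of detection outside NC1 and NC2. Iigp1 (also called Irga6), on chromosome 18, had 79 reads in NC1 and 199 in NC2 (1.35 and 3.33 RPKM), but 1 in NC3 and 3, 3 and 0 in HE1, HE2 and HE3, where in HE3 0 reads allow a level of up to 0.0598 RPKM. Its rate in NC2 was 92.0 times the pooled HE rate, with a 95% counting interval of 41.5 to 254, and NC3 could not be separated from the HE samples at this depth (ratio 0.467, 0.0102 to 3.85). The IRG genes Tgtp2, Ifi47, Gm4951 and F830016B08Rik, which are not members, showed reads in the same samples. Tgtp2 had 20 reads in NC1 and 75 in NC2, and 0, 0, 0 and 2 in NC3, HE1, HE2 and HE3, and the reads of Tgtp1 and Tgtp2, a near-identical pair, are uncertain between them. Gm4951 had 44 and 81 reads in NC1 and NC2 and at most 1 in each other sample. Irgq, an atypical family member, was at 11.2 to 19.2 RPKM in all samples and was lower in HE at an unadjusted p of 0.0102 (log2 fold change -0.49 ± 0.14 SE, limma adjusted p = 0.195), which is no call. Gvin1, a very large interferon-inducible GTPase gene, had 0 reads in every sample.

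The other genes of the interferon pathway and of both families were taken from 10 lists with 120 symbols, of which 109 were in the table and 74 were tested. None was called (0 of 74, lowest limma adjusted p = 0.195), while at an unadjusted p under 0.05 24 were lower and 1 was higher in HE, against 11.8% and 8.68% of all genes tested. The groups did not overlap in 22 with HE below NC and in 2 with HE above NC, against 17.9% and 14.8%. Without NC3, 16 of the 74 were called, among them Irf1, Irf7, Irf9, Gbp4 and Gbp10, against 103 of all 13952 genes tested, members included. Leaving out NC3 keeps only NC1 and NC2 as controls, and the lists were chosen with earlier results of these data known. Nothing is therefore read from these calls about the pathway. Without NC1 or NC2 the number with an unadjusted p under 0.05 fell to 10 and 11 from 25. Over all genes tested it fell as well, to 1342 and 1638 from 2858.

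Of the 13 ligand genes, 12 had at most 3 reads in each sample. Interferon gamma mRNA (Ifng) had 1, 1 and 0 reads in NC1, NC2 and NC3 and 1, 3 and 3 in HE1, HE2 and HE3, and interferon beta mRNA (Ifnb1) had 1, 1, 0, 0, 2 and 3 reads in the same order. The other one, Il18, which promotes interferon gamma production, had 31 to 91 reads and passed the filter (log2 fold change -0.17 ± 0.32 SE, limma adjusted p = 0.765).

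The mRNAs of the interferon gamma receptor chains were detected at like levels in the 6 samples. Ifngr1, the ligand-binding chain of the interferon gamma receptor, stood at 16.9, 14.8 and 15.2 RPKM in NC1, NC2 and NC3 and at 16.8, 16.5 and 15.7 in HE1, HE2 and HE3 (log2 fold change 0.07 ± 0.11 SE, limma adjusted p = 0.723). Ifngr2, the signalling chain, stood at 19.4, 21.6 and 18.02 in NC1, NC2 and NC3 and at 17.0, 15.4 and 17.5 in HE1, HE2 and HE3 (log2 fold change -0.24 ± 0.12 SE, limma adjusted p = 0.273). Of the 9 receptor and JAK kinase genes tested, 1 (Tyk2, a kinase of the type I receptor) had an unadjusted p under 0.05, with a log2 fold change of -0.40, and the median log2 fold change was -0.21. The widest spread in this list was that of Ifnlr1, the interferon lambda receptor chain, at 0.0878 to 0.303 RPKM (7 to 24 reads), and Il10rb was at 1.04 to 2.00 RPKM. None of the 9 reached a level at least 2 times that of NC3 in NC1 or NC2.

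Several transcription factors downstream of the receptors were also highest in NC1 and NC2. Irf1 stood at 31.0 RPKM in NC1, 54.4 in NC2 and 11.9 in NC3, and at 9.47 in HE1, 8.47 in HE2 and 6.26 in HE3 (log2 fold change -1.76 ± 0.50 SE, limma adjusted p = 0.195). NC3 lay above all HE samples for Irf1, as for Gbp2. Of 13 STAT, IRF and coactivator genes tested, 8 had an unadjusted p under 0.05, each with a lower level in HE (Stat2, Stat3, Irf1, Irf2, Irf5, Irf7, Irf9 and Ciita), and 7 were at least 2 times higher in NC1 than in NC3 and 7 in NC2 than in NC3. Irf7, which amplifies type I interferon responses, had the largest difference, from 37.7 and 65.8 RPKM in NC1 and NC2 to 1.96 in NC3 and 1.55, 1.55 and 0.638 in HE1, HE2 and HE3.

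**Figure D3:**
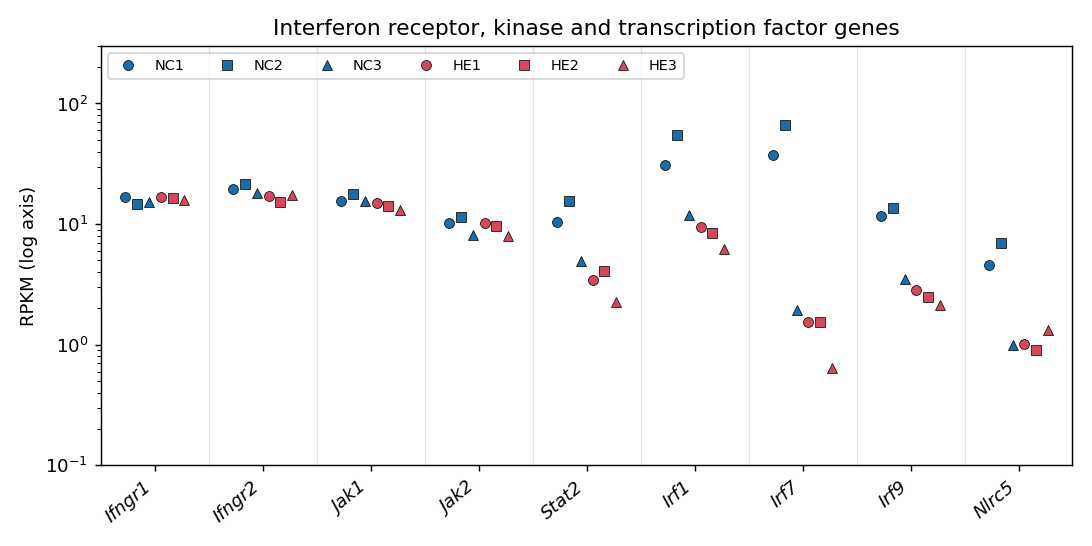
RPKM (log axis) of interferon receptor, JAK kinase and transcription factor genes in each of the 6 samples, 1 point per sample, blue for NC and red for HE. Ifngr1, Ifngr2, Jak1 and Jak2 lie between 7.98 and 21.6 RPKM in all samples, while Stat2, Irf1, Irf7, Irf9 and Nlrc5 are highest in NC1 and NC2.

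Among 13 other interferon gamma targets tested, 7 had an unadjusted p under 0.05, all lower in HE (Cxcl10, Cd274, Serping1, Icam1, Casp4, Ifi35 and Xaf1), and the median log2 fold change was -1.18. Cxcl10, a chemokine that attracts T cells, stood at 56.6, 81.4 and 4.50 RPKM in NC1, NC2 and NC3 and at 4.51, 3.70 and 1.77 in HE1, HE2 and HE3. Of 10 negative regulators of interferon signalling, 3 had an unadjusted p under 0.05 and were lower in HE (Usp18, Ptpn2 and Irf2bp2), with Usp18, which dampens type I receptor signalling, at 12.7, 21.4 and 1.48 RPKM in NC1, NC2 and NC3 and 0.733 to 0.921 in the HE samples. None of these genes was called.

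Of 16 partner genes at vacuoles and inflammasomes that were tested, 4 had an unadjusted p under 0.05 and were lower in HE (Gabarapl1, Sqstm1, Trim21 and Rnf213). The ATG8 conjugation genes, whose products place IRGs and GBPs on vacuoles, showed no such pattern, with Atg5 at 8.99 to 13.7 RPKM and Atg3 at 7.57 to 8.83 RPKM. Nlrp3 and Aim2, sensors of inflammasomes that GBPs feed into, had at most 8 reads in each sample. Of 8 prenylation and CaaX processing enzymes, which serve the GBPs with a lipid anchor, 1 (Zmpste24) had an unadjusted p of 0.0469 and was higher in HE, and the median log2 fold change was 0.16. None of these 8 reached 2 times the NC3 level in NC1 or NC2.

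The 10 genes other than members whose profile over the 6 samples came closest to that of the members were Tlr2, Parp14, Ifi27, Lgals3bp, C1ra, Psmb9, H2-T23, H2-Q4, Bst2 and Cd274. Likeness was the root mean square difference between the centred log2(RPKM + 0.1) of the gene and the mean profile of the 9 members past the filter, and it ran from 0.142 for Tlr2 to 0.314 for Cd274, against a median of 1.51 and a 1st percentile of 0.955 over 13943 genes. The 10 genes were taken as those with the smallest values, so that they lie below the 1st percentile was fixed in advance. Likeness is a description over 6 samples of shared libraries. Tlr2, a receptor for bacterial lipoproteins, stood at 3.41, 5.17 and 0.543 RPKM in NC1, NC2 and NC3 and at 0.463, 0.383 and 0.330 in HE1, HE2 and HE3. Bst2, an antiviral membrane protein, reached 304 and 451 RPKM in NC1 and NC2 and 37.5 in NC3, and lay between 21.6 and 29.9 in the HE samples. Psmb9 is a subunit of the immunoproteasome, and H2-T23 and H2-Q4 are MHC class I genes outside the classical set. The members themselves differed from their mean profile by 0.194 (Igtp) to 1.05 (Gbp5), so that Tlr2 and Parp14 lay closer to it than any member did.

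**Figure D4:**
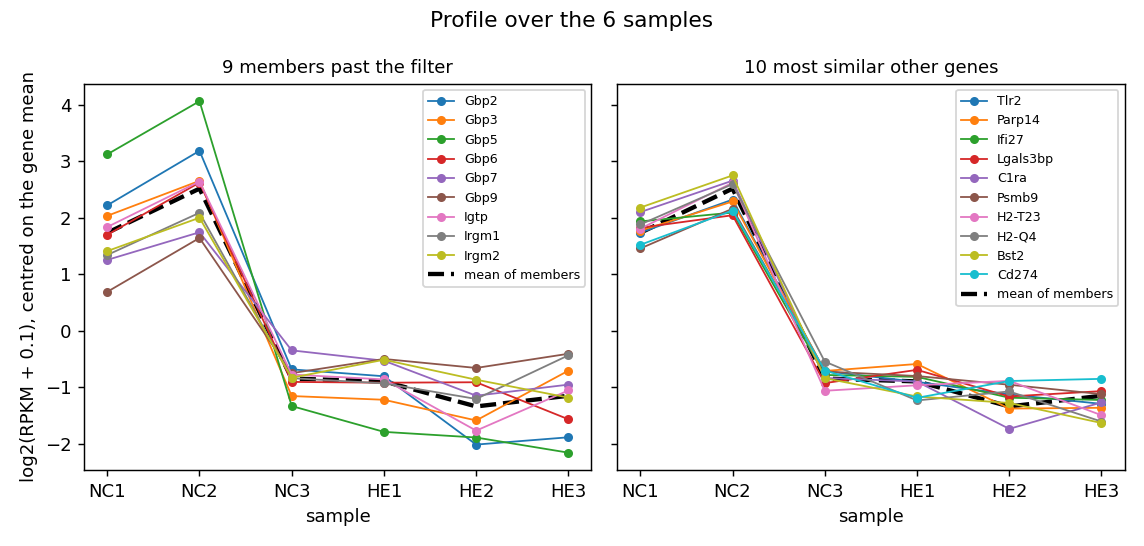
log2(RPKM + 0.1) of each gene, centred on its own mean, over the 6 samples, for the 9 members past the filter (left) and the 10 most similar other genes (right), with the mean of the members as a dashed line. The mean profile stands at 1.73 in NC1 and 2.51 in NC2, and between -0.85 and -1.34 in NC3 and the HE samples.

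None of the tested genes beside the GBP and IRG clusters had an unadjusted p under 0.05, while 4930438A08Rik, Abcg3 and Psme2b were not tested. Of the genes beside the clusters, Smim3 and 4930438A08Rik were highest in NC1 and NC2. Pdlim5, on the proximal side of the chromosome 3 cluster, was at 22.6 to 25.3 RPKM in the 6 samples, and Kyat3, on its distal side, at 0.477 to 0.757 RPKM. Lrrc8b, next to the chromosome 5 cluster, was at 9.20 to 11.7 RPKM, and Trim7, next to Irgm1, was at 0.583 to 2.18 RPKM with its highest level in NC3. Smim3, beside Iigp1, was at 5.29 and 8.22 RPKM in NC1 and NC2, 4.31 in NC3 and 3.42 to 4.50 in the HE samples (log2 fold change -0.54 ± 0.25 SE, limma adjusted p = 0.262). Chsy3, on the other side of Iigp1, was at 0.629 to 1.16 RPKM in the 6 samples. 4930438A08Rik, beside Irgm2, had 6 and 10 reads in NC1 and NC2, 2 in NC3 and 1, 0 and 0 in HE1, HE2 and HE3. Abcg3 and Psme2b had at most 2 reads in each sample. Gm12250, beside Igtp, was not found under that symbol in the deposited table, so no level is given for it.

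Markers of immune and endothelial cells, taken as summed lists, were not highest in NC1 or NC2. Of 12 T cell and NK cell markers in the table, the summed level was 0.426 to 0.519 RPKM in the NC samples and 0.576 to 1.68 RPKM in the HE samples, with 6, 6 and 4 of the 12 at 0 in NC1, NC2 and NC3. Cd3e had 3, 0 and 0 reads in NC1, NC2 and NC3, and Gzmb had 0 in each of them. The 17 microglia and macrophage markers summed to 13.8 to 18.7 RPKM in NC and 15.4 to 42.2 RPKM in HE, with C1qa, Trem2 and Ptprc at 0 reads in NC1 and NC2. Others were detected there, with Csf1r, P2ry12 and Tmem119 at 13 to 22 reads in NC1 and NC2. Cx3cr1 had 11, 10 and 2 reads and Aif1 had 7, 4 and 1 reads in NC1, NC2 and NC3. In HE1, HE2 and HE3 Cx3cr1 had 18, 4 and 10 reads and Aif1 had 6, 2 and 2. Cd68, a lysosomal protein of macrophages, made up most of the NC sums and was highest in NC1 and NC2, as the members were, at 12.8, 16.6 and 10.7 RPKM in NC1, NC2 and NC3 and 8.13, 8.59 and 4.60 in HE1, HE2 and HE3 (log2 fold change -0.93 ± 0.27 SE, limma adjusted p = 0.195). The other 16 markers summed to 2.08 to 3.10 RPKM in NC and 6.81 to 37.6 RPKM in HE. Of these, Lyz2 alone was at 9.44, 2.98 and 25.45 RPKM in HE1, HE2 and HE3, and at 0.248 to 1.38 RPKM in NC. The part of these cells in the result was not tested. The 10 endothelial markers summed to 2.95 to 4.19 RPKM in NC and 4.73 to 6.31 in HE.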

How the data were processed

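The authors filtered the reads, aligned them with TopHat2 (the submitters' notes also name CASAVA 1.7 and mm10) and deposited for each gene a read count and an RPKM, which divides the count by gene length and by the total of the sample. The counting tool, annotation and use of strand in counting are not given in the sources used here, and the labels and the study's methods name different sequencers. The deposited counts are raw but written with a comma between digits, so they were recorded under another unit, and count models such as the authors' DESeq2 were not run. Symbols were found for 21781 of 22048 identifiers.

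HE and NC were compared with limma 3.58.1 (R 4.3.3) on log2(RPKM + 0.1), using its mean-variance trend, group as the only term and Benjamini-Hochberg adjustment. This scale understates the change of low genes. The filter on low values asked for a rate equal to 10 reads at the median library size in 3 or more samples, and for 15 reads or more in total, and 13952 genes passed it. The fit was tested on simulated data. Counting intervals are exact Poisson or binomial 95% intervals, and pooled HE rates are summed reads over summed totals. Intervals of ratios to a pooled HE rate therefore leave out the spread between HE samples. Gene positions were taken from RefSeq for GRCm38.p6.

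The members and the gene lists were chosen with earlier results of these data known, and the members are described without a test. The text names all members, pathway genes with an unadjusted p under 0.05, Ifng, Ifngr1, Ifngr2 and Irf1, the 10 most similar genes and the nearest protein-coding gene on each side of a cluster. Other genes were chosen after their values were seen, and some results for single genes of the rule are not reported here. The alternatives were a pseudocount of 1, median-of-ratios scaling, other filters, each sample left out, the replicate number as a block and limma's voom on the read counts.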

Additional observations from a re-analysis of the deposited data

How the results depend on the processing

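The HE minus NC difference stayed below 0 in all 80 alternative values of the single members. Each alternative kept NC1 or NC2, which lay above every HE sample in all members, so the sign could hardly turn. It is therefore no support for a lower level in HE, as NC3 alone was at 0.488 to 1.81 times the HE mean. The median over the members ranged from -3.38 to -1.57 when each sample was left out, and was -1.43 with a pseudocount of 1 and -2.26 with median-of-ratios scaling. With a pseudocount of 1 the median centred level moved to -0.63 in HE1, -0.93 in HE2 and -0.71 in HE3, from -0.89, -1.18 and -1.12, and with at least 10 reads in every sample, which kept 8 members, it was -1.40 in HE2. Dropping the filter changed nothing for the members, as all 10 had reads. A median over only the 9 members past the filter, added after the data were seen, was -2.27.

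The number of genes called was 0 under each alternative except leaving out NC3, and over the samples left out it ranged from 0 to 103 for all genes (96 of the 103 lower in HE) and from 0 to 16 for the pathway and family genes. The number with an unadjusted p under 0.05 then ranged from 1342 to 3107 for all genes and from 10 to 31 for the pathway and family genes. For the 28 pathway genes tested singly, 322 of 335 alternative values kept direction and side of the threshold, and 13, all without NC3, passed it. Leaving out NC3 keeps only NC1 and NC2 as controls, so nothing is read from these calls about the pathway.

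The labels give both groups the replicate numbers 1 to 3, but nothing says that they mark a shared litter or day. Deviations from the group means of same-numbered samples correlated at 0.156, 0.0869 and 0.0603, and each sample correlated best with its own number, which is a hint from the data only. With the replicate block 0 genes were called and 3184 had an unadjusted p under 0.05, 31 of them pathway and family genes. With voom 0 were called and 2914 had such a p, 19 of them pathway and family genes. Depth limits the members at few reads, Iigp1 and Gbp6, outside NC1 and NC2.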
